A study of Homo sapiens with 16 samples.

Results

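The mRNA level after hairpin knockdown of METTL16 was measured in A549, an established human non-small cell lung cancer line, by sequencing fragmented total RNA (input) made alongside ribosome footprints. Cells carrying the hairpin labelled shM16-2, directed against METTL16, were compared with cells carrying a scrambled hairpin, labelled shscramble rep1, and each side has 1 input library. All cells had been given fresh medium for 2 h and cycloheximide, which stalls elongating ribosomes, at 100 µg/mL for 5 min before harvest. For input, RNA was broken with ZnCl2 at 10 mM and pieces of 40 to 60 nt were cut from a gel, per the labels' protocols. The genes described are the 9706 that both input libraries list, of 12587 genes listed anywhere in the series. The other libraries drawn on were the footprints of the same 2 samples, a further scrambled-hairpin sample (shscramble rep2, from another table of the series), and 2 clones made with a guide against METTL16 (sgM16-1 and sgM16-2) beside A549 cells labelled as untreated. The study's design text gives 1 hairpin against METTL16, and whether the last digit of its label numbers a hairpin or a replicate is not stated. The knockdown has 1 library, how hairpins were delivered or selected for is not given in the sources used here, and METTL16 protein was not analysed here. With 1 library a side there is no test of the knockdown against the scramble, so every result below is a value or a count.

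METTL16 is an RNA methyltransferase that places N6-methyladenosine on the U6 spliceosomal RNA and on hairpins in the MAT2A mRNA. MAT2A makes S-adenosylmethionine (SAM), the methyl donor of most cellular methyltransferases, and METTL16 is known to help the MAT2A transcript mature when SAM is scarce, so the enzyme is tied to the methionine cycle. The title of the series links METTL16 in lung cancer cells to translation through eIF4E2, a cap-binding protein known as a translational repressor.

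METTL16 lies on chromosome 17 (2415715 to 2511888, GRCh38.p14). Its mRNA was listed at 3.50 TPM (19 reads) in the knockdown input, against 11.1 TPM (34 reads) in the scramble and 14.1 TPM (44 reads) in the other scramble. Both scramble libraries lay above the knockdown. The knockdown to scramble ratio of 0.315 had a 95% counting interval of 0.170 to 0.568. On the log2(TPM + 1) scale most genes were lower in the knockdown library, with an all-gene median of -0.31, a median TPM ratio of 0.786 and 70.1% of genes below 0. Changes are therefore given as relative changes, the log2 difference of knockdown minus scramble with that median removed. METTL16 had a relative change of -1.12, and of -1.16 against the other scramble. Its footprints in the same cells had a relative change of -1.27, and METTL16 input in the clones had relative changes of -0.87 and -0.97 against the untreated cells.

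A gene was called higher or lower by size when its relative change reached 1 log2 unit in that direction. By this rule 602 genes (6.2%) were higher and 521 (5.37%) were lower in the knockdown. These shares of all genes are the base for the counts by size of each list below. The middle 50% of genes lay between -0.38 and 0.40, and 90% between -1.02 and 1.08. For 398 of the higher and 392 of the lower genes, the counting interval of the ratio also lay wholly on that side of the median ratio. Whole reads recovered from the TPM values came to 699520 in the knockdown and 462672 in the scramble, with medians of 25 and 18 reads per gene, so many calls rest on few reads. Among the 1888 genes with under 20 reads over both libraries, 192 were higher and 154 lower. Among the 2441 genes with 100 reads or more, 76 (3.11%) were higher and 46 (1.88%) lower.

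The 2 scramble inputs differed from each other by more than the knockdown differed from its scramble. Of 9311 genes listed in both scrambles and the knockdown, 861 (9.25%) were higher and 1006 (10.8%) were lower by size in the other scramble than in the scramble. At 100 reads or more these counts were 130 (5.33%) and 306 (12.5%) of 2440 genes. The counts of the knockdown are thus within the range that a control library alone gave here, and the value in the other scramble is given for most genes described one by one for that reason. Against both scrambles at once, 217 genes (2.33%) were higher and 203 (2.18%) were lower by size in the knockdown. Since the knockdown library is common to both comparisons, these are side by side values and not independent checks.

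The libraries held the marker genes of the line and few of other cell types. All 11 A549 markers were listed on both sides and summed to 4346 TPM in the knockdown and 4305 TPM in the scramble. Of 7 immune markers only CD14 was listed on either side, at 7.997 TPM in the knockdown, 12.4 TPM in the scramble and 5.22 TPM in the other scramble. None of 5 endothelial markers was listed on either side. Of 8 fibroblast markers 2 were listed in the knockdown and 3 in the scramble, summing to 5.73 TPM in the knockdown and 5.99 TPM in the scramble. In total RNA of a cell population, fewer cells with a transcript and less of it per cell cannot be told apart.

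Among well-measured genes (a mean of at least 10 TPM, at least 30 reads and a counting interval off the median ratio) the 15 highest were led by TM4SF4, SRPX and CADM4. TM4SF4, a tetraspan membrane protein, stood at 192 TPM (178 reads) in the knockdown, against 28.7 TPM (15 reads) in the scramble and 91.8 TPM in the other scramble. Its relative change was 3.01 against the scramble and 1.64 against the other scramble. LCN2, the iron-siderophore carrier lipocalin, stood at 58.8 TPM in the knockdown, against 10.99 and 1.80 TPM in the scrambles. Its relative change was larger against the other scramble (5.01) than against the scramble (2.63). C3, the central complement component, stood at 41.7 TPM (210 reads) in the knockdown, against 12.3 TPM (35 reads) and 6.91 TPM. CDH1, the epithelial cadherin, stood at 79.4 TPM (293 reads) in the knockdown, against 27.4 TPM (57 reads) and 7.54 TPM. In these 4 genes the knockdown was the highest of the 3 libraries, with relative changes of 1.99 for C3 and 1.81 for CDH1 against the scramble.

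A further 10 of the highest genes had relative changes between 1.70 and 2.89, most of them with under 10 reads in the scramble. They were SRPX (2.89), the adhesion molecule CADM4 (2.89), the protein disulfide isomerase family member PDIA5 (2.49), the secreted serine protease HTRA1 (2.44), the insulin-like growth factor binding protein IGFBP7 (2.04), the ferritin receptor SCARA5 (1.91), MT-ND6 (1.88), CNPPD1 (1.80), the class II antigen loading factor HLA-DMB (1.72) and the RNase ZC3H12A (1.70). CADM4, for example, had 28 reads in the knockdown and 2 in the scramble, which gives a ratio of 7.89 with an interval of 1.99 to 68.4. HTRA1 and ZC3H12A were not higher against the other scramble, where their relative changes were -0.080 and -0.084. SCARA5 and HLA-DMB were not listed in the other scramble.

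**Figure D1:**
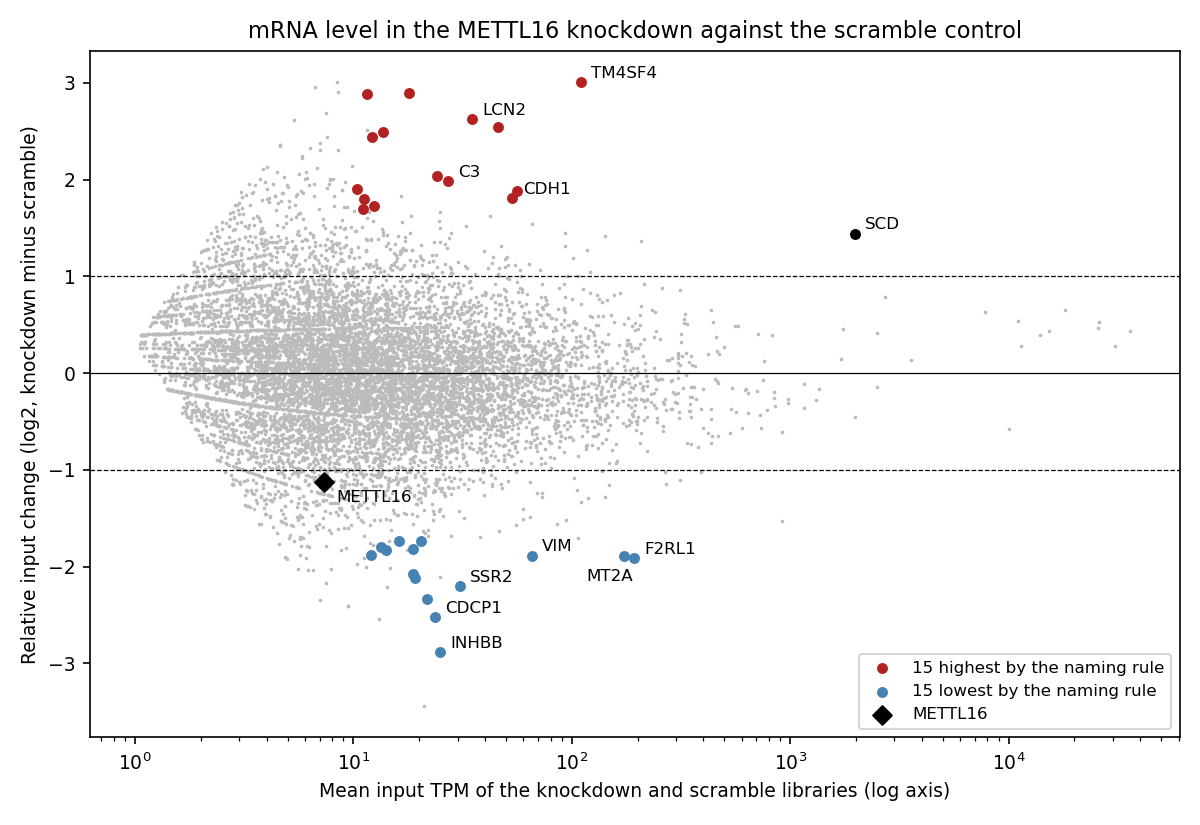
Each point is 1 of 9706 genes, with the mean input TPM of the knockdown and scramble libraries on a log axis and the relative change (log2, knockdown minus scramble, all-gene median removed) on the vertical axis. Red and blue points are the 15 highest and 15 lowest genes by the naming rule, the diamond is METTL16 at -1.12, and the dashed lines mark the size rule of 1 log2 unit, which low genes pass most often.

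INHBB, CDCP1 and SLC16A6 led the 15 lowest genes. INHBB, the beta B subunit of inhibins and activins, stood at 4.11 TPM (8 reads) in the knockdown, against 45.6 TPM (50 reads) in the scramble and 28.6 TPM in the other scramble, with a relative change of -2.88. CDCP1, a transmembrane substrate of Src family kinases, stood at 5.06 TPM (20 reads) in the knockdown, against 42.2 TPM (94 reads) and 15.4 TPM in the scrambles, with a relative change of -2.53. SSR2, the beta subunit of the translocon-associated protein complex of the endoplasmic reticulum, stood at 8.43 TPM (34 reads) in the knockdown, against 52.8 TPM (120 reads) and 40.5 TPM, with a relative change of -2.20. In all 3 genes the knockdown was the lowest of the 3 libraries.

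VIM, the intermediate filament protein vimentin, stood at 22.9 TPM (72 reads) in the knockdown, against 108 TPM (192 reads) in the scramble and 271 TPM in the other scramble, with a relative change of -1.89 and an interval of the ratio of 0.159 to 0.278. MT2A, a metal-binding metallothionein, stood at 61.3 TPM in the knockdown, against 285 and 793 TPM in the scrambles, with a relative change of -1.89. F2RL1, the protease-activated receptor PAR2, stood at 67.5 TPM (120 reads) in the knockdown, against 318 TPM (319 reads) and 185 TPM, with a relative change of -1.91. These 3 were the most abundant of the lowest genes, and the other scramble lay well above the scramble for VIM and MT2A. SLC16A6, a monocarboxylate transporter family member, changed direction between the scrambles. It stood at 5.27 TPM in the knockdown, against 38.1 TPM in the scramble and 2.12 TPM in the other scramble. Its relative change was -2.33 against the scramble and 1.60 against the other. With the other scramble as control, 9 of the 14 lowest genes measured in it passed the size rule.

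The remaining lowest genes were the lipoprotein lipase inhibitor ANGPTL4 (-2.12), RIOX1 (-2.07), the fibrinogen gamma chain FGG (-1.88), the dynein adaptor BICD2 (-1.83), the Arp2/3 subunit ARPC1A (-1.81), the condensin II subunit NCAPG2 (-1.79), RAB3IL1 (-1.74) and UTP3 (-1.73). RRAD, the lowest point of the plot at -3.44, stood at 2.06 TPM (2 reads) in the knockdown, against 40.2 TPM (22 reads) in the scramble and 23.3 TPM in the other scramble. It lay outside the naming rule for want of reads and was picked after its values were seen.

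The genes of the SAM cycle, and of factors of the U6 and 7SK RNAs listed with them, lay low together. Of 14 measured members 13 lay below the all-gene median, their median relative change was -0.51, none was higher and 3 were lower by size. MAT2A stood at 60.2 TPM (164 reads) in the knockdown, against 108 TPM (165 reads) in the scramble and 90.7 TPM in the other scramble. Its relative change was -0.52 against the scramble and 0.0032 against the other, so that MAT2A did not stand apart from other genes in the second comparison. MEPCE, the methylphosphate capping enzyme of the 7SK RNA, stood at 13.8 TPM in the knockdown, against 40.9 and 79.4 TPM in the scrambles, with a relative change of -1.19. MTRR, which reactivates methionine synthase, stood at 4.56 TPM (18 reads) in the knockdown, against 16.6 TPM (37 reads) and 12.8 TPM, with a relative change of -1.36. METTL16 was the third gene lower by size, and as the target of the hairpin it does not speak for the rest of the list.

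None of the other members passed the size rule. The spermine synthase SMS (-0.66), the SAM decarboxylase AMD1 (-0.66), the spermidine synthase SRM (-0.43), the MAT2A regulatory subunit MAT2B (-0.40) and the S-adenosylhomocysteine hydrolase AHCY (-0.28) were below it. So were the U6 uridylyltransferase TUT1 (-0.54), the 7SK-binding protein LARP7 (-0.51) and AHCYL1 (-0.39), of which TUT1 and LARP7 had under 10 reads a side. MTR, methionine synthase, was the 1 member above it (0.32), with 18 and 10 reads. Against the other scramble the list median was -0.48, 10 of the 14 members lay below the median in both comparisons, against 33.3% of all genes, and 2 were lower by size in both, against 2.18% of all genes. These 2 were MEPCE and METTL16, and METTL16, the target of the hairpin, also enters the other counts of the list. Footprints of the list gave a median of -0.37 with 4 of 14 members above the footprint median. In the clones the list did not show this pattern, with medians of 0.03 and 0.16 over 12 measured members.

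The other writers, erasers and readers of N6-methyladenosine were spread on both sides of the all-gene median. The median of their 24 measured members was 0.00, none was higher by size and 2 were lower. IGF2BP3, an mRNA-binding reader, stood at 1.93 TPM in the knockdown, against 6.85 TPM in the scramble, with a relative change of -1.11. WTAP, the adaptor of the METTL3 and METTL14 writer complex, stood at 6.94 TPM (27 reads) in the knockdown, against 19.6 TPM (43 reads), with a relative change of -1.07. Against the other scramble, at 4.36 TPM for IGF2BP3 and 12.1 TPM for WTAP, these changes were -0.29 and -0.13. CBLL1 (-0.76) and METTL3 (-0.70), both of the writer complex, followed among members with 20 reads or more, and ZCCHC4 (-0.83) had 5 and 8 reads.

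Genes of cholesterol and fatty acid synthesis and uptake lay high in the knockdown against both scrambles. These genes are known to be switched on together by SREBP transcription factors when membrane sterol is low. Of 29 measured members 23 lay above the all-gene median, with a list median of 0.59, 7 were higher by size and 1 was lower, against 6.2% and 5.37% of all genes. Summed over the list, 4499 TPM in the knockdown stood against 2740 TPM in the scramble and 1433 TPM in the other scramble. Against the other scramble the median was 1.53, and 6 members were higher by size against both scrambles. Because the 2 scrambles differed so much in these genes, the size of the difference depends on the scramble while 20 of 28 members lay above the median in both comparisons, against 32.4% of all genes.

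Members higher by size are named after their values were seen, and 3 of their promoters are shown as examples of their control regions: an early and a late enzyme of sterol synthesis and a fatty acid desaturase. The sequences are from RefSeq, assembly GRCh38.p14, and run 250 bases before to 50 after each gene's start: HMGCS1 at chr5:43313363-43313662 on the minus strand, SCD at chr10:100346983-100347282 on the plus strand and TM7SF2 at chr11:65111622-65111921 on the plus strand. Capitals mark CCAAT boxes, read on either strand (CCAAT or ATTGG).
HMGCS1: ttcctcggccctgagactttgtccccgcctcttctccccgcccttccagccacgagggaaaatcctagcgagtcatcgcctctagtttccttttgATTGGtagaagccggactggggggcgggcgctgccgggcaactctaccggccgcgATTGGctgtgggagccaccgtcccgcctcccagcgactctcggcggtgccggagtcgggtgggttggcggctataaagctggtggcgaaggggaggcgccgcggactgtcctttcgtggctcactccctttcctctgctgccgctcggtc
SCD: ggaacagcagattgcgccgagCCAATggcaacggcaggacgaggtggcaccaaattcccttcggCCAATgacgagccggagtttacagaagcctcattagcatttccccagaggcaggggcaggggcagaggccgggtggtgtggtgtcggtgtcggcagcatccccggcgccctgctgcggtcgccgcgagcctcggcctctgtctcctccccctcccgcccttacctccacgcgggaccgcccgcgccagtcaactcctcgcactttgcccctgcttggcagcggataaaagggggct
TM7SF2: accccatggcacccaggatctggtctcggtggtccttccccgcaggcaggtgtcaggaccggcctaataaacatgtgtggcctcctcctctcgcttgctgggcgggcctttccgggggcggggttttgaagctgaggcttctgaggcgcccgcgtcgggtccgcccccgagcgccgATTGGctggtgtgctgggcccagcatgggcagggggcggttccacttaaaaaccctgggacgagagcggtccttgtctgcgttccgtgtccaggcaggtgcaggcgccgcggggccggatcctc

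Of the 29 members 22 had a promoter in the reference table. The sterol regulatory element was searched as TCACNCCAC on both strands, and 1 of the 22 windows held it, that of SREBF2, 133 bases before the start. Among all 27305 promoters 1.15% held it, and among the promoters of 7960 measured genes 0.98%. CCAAT, read on both strands, was in 16 of the 22 windows, against 35.7% of all promoters and 37.6% of those of measured genes. Both motifs were searched after the values of the list were known, and a match is a description of the letters only.

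SCD, the desaturase that makes oleate and palmitoleate, was the most abundant member. It stood at 2718 TPM (8655 reads) in the knockdown, against 1238 TPM (2221 reads) in the scramble and 389 TPM in the other scramble, with a ratio to the scramble of 2.196 (2.10 to 2.30) and a relative change of 1.44. HMGCS1, an early enzyme of the mevalonate pathway, stood at 57.7 TPM (232 reads) in the knockdown, against 35.3 TPM (80 reads) and 19.9 TPM, with a relative change of 1.00. SQLE, squalene epoxidase, stood at 131 TPM (343 reads) in the knockdown, against 70.6 TPM (104 reads) and 35.3 TPM, with a relative change of 1.19. In all 3 enzymes the knockdown was the highest of the 3 libraries. TM7SF2, a sterol reductase of the late pathway, stood at 19.8 TPM (41 reads) in the knockdown, against 8.58 TPM (10 reads) and 5.88 TPM, with a relative change of 1.43. FASN, fatty acid synthase, stood at 118 TPM (666 reads) in the knockdown, against 72.1 TPM (230 reads) and 107 TPM. FASN was the member whose value in the other scramble lay close to that in the knockdown, with relative changes of 1.01 and 0.72.

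SREBF2, the transcription factor that drives the sterol genes, stood at 58.9 TPM in the knockdown, against 39.5 and 36.8 TPM, with a relative change of 0.87. The desaturases FADS1 (0.65) and FADS2 (0.89) were also above the median, and INSIG1, which holds SREBP in the endoplasmic reticulum, was at -0.035. EBP, a sterol isomerase, was the 1 member lower by size, at 36.3 TPM (39 reads) in the knockdown, against 136 TPM (82 reads) and 98.8 TPM, with a relative change of -1.56. The late enzyme NSDHL (-0.65) and the mevalonate and isoprenoid enzymes PMVK (-0.58) and FDPS (-0.40) were also below the median. Members thus lay on both sides of the median. In the footprints of the same cells 20 of the 29 members lay above the footprint median, with a list median of 0.23. In the clones the list medians were 0.30 and -0.08 over 27 measured members.

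**Figure D2:**
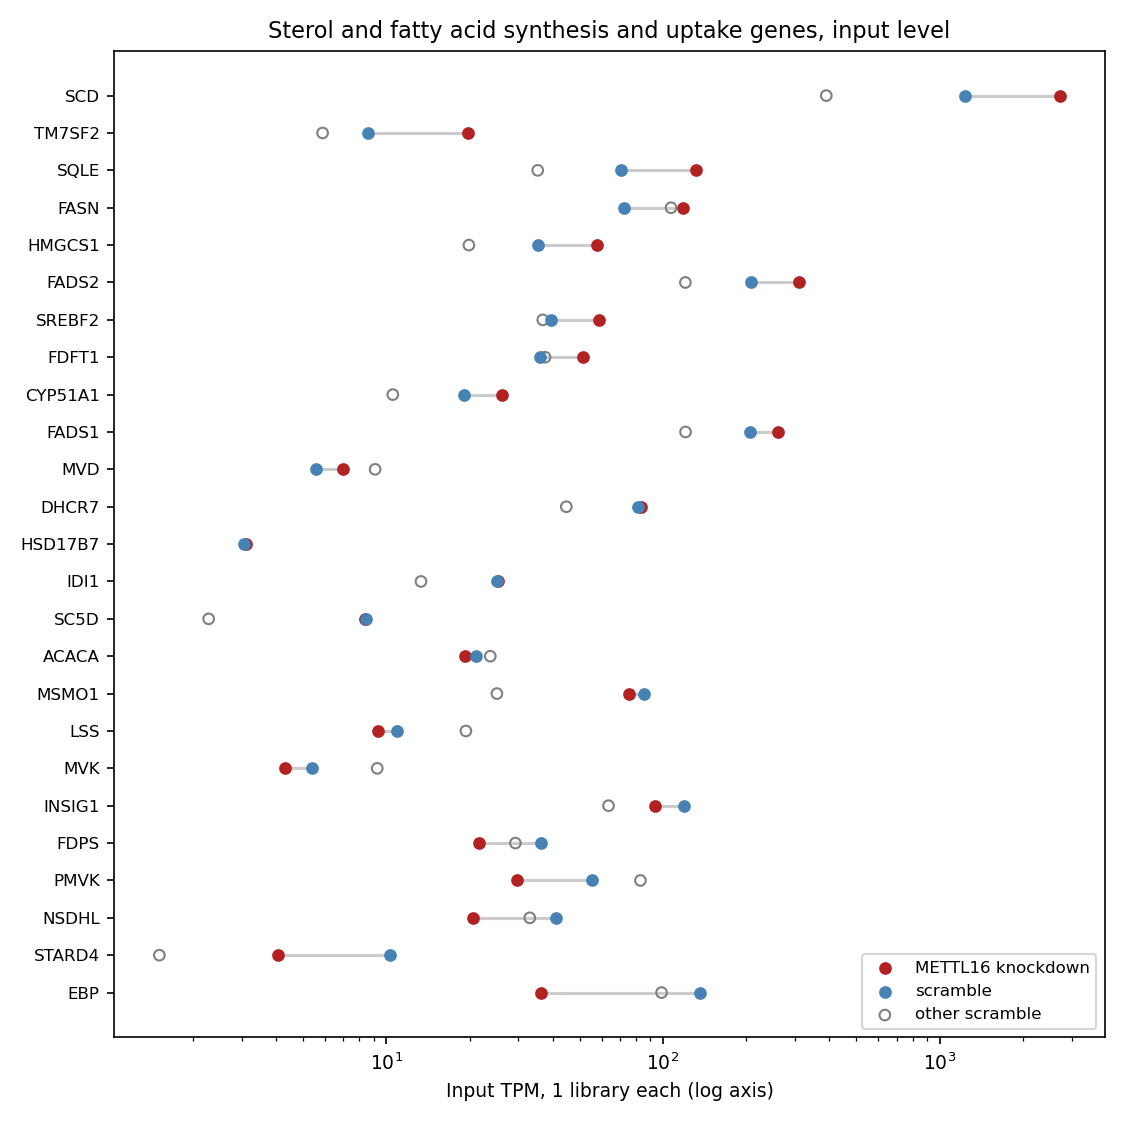
Input TPM (log axis) of 25 of the 29 sterol and fatty acid synthesis and uptake genes, ordered by relative change, in the METTL16 knockdown (red), the scramble (blue) and the other scramble (open grey), 1 library each, with a grey line joining knockdown and scramble. SCD and TM7SF2 at the top have the knockdown highest, and EBP at the bottom has it lowest.

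Basement membrane and extracellular matrix genes were the list with the highest median. Of 37 measured members 26 lay above the all-gene median, and the list median was 0.65. By size 9 were higher and 1 was lower, against 6.2% and 5.37% of all genes. FBN2, the microfibril protein fibrillin-2, stood at 14.0 TPM (112 reads) in the knockdown, against 4.64 TPM (21 reads) in the scramble and 3.03 TPM in the other scramble, with a relative change of 1.71. COL5A2, a fibrillar collagen chain, stood at 36.2 TPM (161 reads) in the knockdown, against 13.6 TPM (34 reads) and 34.8 TPM, with relative changes of 1.66 and 0.64. HSPG2, the proteoglycan perlecan, stood at 22.5 TPM (248 reads) in the knockdown, against 10.97 TPM (68 reads) and 35.7 TPM, with relative changes of 1.28 and -0.056. LAMB3, a laminin chain, had the largest relative change of the list (2.00) on 35 and 5 reads. FBN2 was highest in the knockdown among the 3 libraries, while HSPG2 was highest in the other scramble.

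The further members higher by size, named after their values were seen, were the laminin chains LAMB1 (1.03) and LAMA5 (1.09), the collagen IV chains COL4A6 (1.12) and COL4A5 (1.20) and the crosslinking enzyme LOXL2 (1.14). The member lower by size was COL7A1, of anchoring fibrils, at -1.11. Against the other scramble the list median was 0.64 with 28 of 35 members above 0. By size 5 members were higher and 1 lower against both, where 2.33% and 2.18% of all genes were. In the footprints of the same cells the list median was -0.15, and 13 of 37 members lay above the footprint median of all genes. Genes with 100 input reads or more had footprint medians between -0.29 and -0.06 by bin of gene length. A base matched to the list was not computed. The clone medians were 0.38 and 0.01 over 35 members. VCAN, the matrix proteoglycan versican, stood outside the list at 60.6 TPM (540 reads) in the knockdown, against 23.7 TPM (119 reads) and 14.2 TPM in the scrambles, with a relative change of 1.63. PAPPA, a secreted protease of insulin-like growth factor binding proteins, stood at 125 TPM (880 reads) in the knockdown, against 61.8 TPM (245 reads) and 26.96 TPM, with a relative change of 1.31. VCAN and PAPPA were picked after their values were seen, as genes with 500 reads or more, where counting error is smallest.

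Of the 282 genes with 500 reads or more, 11 were higher and 2 lower by size. Besides VCAN, PAPPA, SCD, FASN, LAMB1 and LAMA5, the higher ones were CPLX2 (1.45), the sterol regulator SREBF1 (1.42), the epoxide hydrolase EPHX1 (1.37), the drug exporter ABCC1 (1.27) and the endoplasmic reticulum calcium-binding protein CALU (1.04). SREBF1 stood at 194 TPM (970 reads) in the knockdown, against 89.5 TPM (252 reads) in the scramble and 66.8 TPM in the other scramble. EPHX1 stood at 282 TPM (424 reads) in the knockdown, against 135 TPM (114 reads) and 72.9 TPM. In 9 of these 11 genes the relative change also passed the size rule against the other scramble, the exceptions being LAMA5 (0.91) and FASN (0.72). The lower ones were the chemokine CXCL5 (-1.52) and the WNT antagonist DKK1 (-1.02), whose levels in the other scramble (350 and 227 TPM) lay near those in the knockdown (402 and 221 TPM) and below those in the scramble (1433 and 558 TPM).

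Mesenchymal, TGF-beta and YAP target genes had a median of 0.42 over 43 measured members, with 30 above the all-gene median. By size 5 were higher and 2 lower, against 6.2% and 5.37% of all genes. CCN2, the connective tissue growth factor, stood at 92.3 TPM (131 reads) in the knockdown, against 38.8 TPM (31 reads) in the scramble and 56.4 TPM in the other scramble, with a relative change of 1.54. FN1, fibronectin, stood at 23.6 TPM (247 reads) in the knockdown, against 10.9 TPM (64 reads) and 12.3 TPM, with a relative change of 1.36. IGFBP7 stood at 37.6 TPM in the knockdown, against 10.6 and 16.3 TPM. F3 and ANKRD1, the other members higher by size, had 2 reads each in the scramble. In CCN2, FN1 and IGFBP7 the knockdown was the highest of the 3 libraries, and all 5 members higher by size were so against both scrambles. VIM and LTBP1, a binding protein of latent TGF-beta, went the other way, and LTBP1 stood at 3.59 TPM in the knockdown, against 14.7 TPM in the scramble and 5.85 TPM in the other scramble, with relative changes of -1.47 and 0.0076. Footprints of the list had a median of -0.01.

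Epithelial and keratin markers had a median of 0.10 over 23 members, with 3 higher (CDH1, EPCAM and KRT80) and none lower by size. KRT80 stood at 34.0 TPM in the knockdown, against 18.8 TPM in the scramble and 139 TPM in the other scramble, and its relative change of 1.13 turned to -1.42 against the other scramble. The protease inhibitor SPINT2 (-0.75) and the desmosomal PKP2 (0.75) were the other members named. Integrin subunits had a median of 0.06 over 12 members (0.57 against the other scramble), with 2 higher and 1 lower. ITGB4, of hemidesmosomes, stood at 36.1 TPM (148 reads) in the knockdown, against 17.7 TPM (41 reads) and 39.8 TPM, with a relative change of 1.29. ITGA2, of the collagen receptor, stood at 41.9 TPM (201 reads) in the knockdown, against 24.1 TPM (65 reads) and 11.6 TPM, with a relative change of 1.08. ITGA5, of the fibronectin receptor, stood at 8.93 TPM (40 reads) in the knockdown, against 26.5 TPM (67 reads) and 27.2 TPM, with a relative change of -1.16, and its footprints had a relative change of -2.38. ITGB5 was at -0.49.

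Inflammatory genes split in both directions. Of 25 NF-kB targets and chemokines 17 lay above the all-gene median, the median was 0.35, 3 were higher and 5 lower by size. The higher ones were LCN2, C3 and the adhesion molecule ICAM1 (1.03), of which ICAM1 (60 and 20 reads) was not listed in the other scramble. The lower ones were secreted chemokines and a cytokine: IL6, CXCL5, CXCL2, CCL20 and CXCL3. CCL20 had 2 and 4 reads and was not listed in the other scramble. The chemokines CXCL1 (-0.07), CXCL8 (0.10) and CCL2 (0.35) were not past the size rule. Set against the other scramble, these stood at 1.08, 2.14 and 2.35. CXCL5, a neutrophil chemokine, stood at 402 TPM (594 reads) in the knockdown, against 1433 TPM (1194 reads) in the scramble and 350 TPM in the other scramble. CXCL2 stood at 25.9 TPM (22 reads) in the knockdown, against 94.1 TPM (45 reads) and 30.7 TPM. CXCL3 stood at 24.5 TPM (33 reads) in the knockdown, against 71.1 TPM (54 reads) and 20.7 TPM. For these 3 chemokines the scramble was the library that stood apart and the other scramble lay close to the knockdown. IL6 had 7 reads in the knockdown and 17 in the scramble, with a relative change of -1.62. None of the list was lower by size against both scrambles.

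Immediate early genes had a median of 0.36 over 27 members against the scramble and of -0.60 against the other scramble, so the direction of the list depended on the scramble. Their named members were CCN2, FOSL2 (1.20, and -0.017 against the other scramble), CCN1 (0.92) and DUSP4 (0.66). Receptor tyrosine kinases and their ligands had a median of 0.11 over 28 members, with TYRO3 (1.74), TGFA (1.12) and INSR (1.12) higher and AREG (-1.33) lower by size. Against the other scramble TYRO3 stood at 0.37, TGFA at 0.72 and INSR at 1.80. TYRO3 had 35 reads in the knockdown and 5 in the scramble, and INSR had 33 and 9. AREG, a ligand of the EGF receptor, stood at 53.2 TPM (53 reads) in the knockdown, against 167 TPM (94 reads) in the scramble and 64.6 TPM in the other scramble, the same order as CXCL2. Interferon response and antigen presentation genes had a median of 0.01 over 26 members (0.65 against the other scramble), with IRF1 (1.11) higher by size, and TAP1 (0.96), DTX3L (0.86) and IFITM2 (-0.82) among the largest.

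The 13 mRNAs encoded in the mitochondrial genome all lay above the all-gene median, with a list median of 0.47, and of 1.90 against the other scramble. They summed to 211308 TPM in the knockdown, against 190868 TPM in the scramble and 79641 TPM in the other scramble. TPM is scaled to a fixed total, so that other genes' values move against these, and scaling all libraries to their sum moved the all-gene median to -0.43. MT-ND5 stood at 3165 TPM (3481 reads) in the knockdown, against 2278 TPM (1412 reads) and 1274 TPM, with a relative change of 0.78. MT-CYB had a relative change of 0.66 and MT-ND2 of 0.63. MT-ND6, the 1 mRNA of the light strand, had 27 and 5 reads and a relative change of 1.88. All 13 were also above the footprint median, with a footprint list median of 1.36.

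Nuclear genes for mitochondria lay on the other side. Mitochondrial ribosomal proteins had a median of -0.32 over 80 members, with 55 below the all-gene median. By size 4 were higher and 10 lower, against 6.2% and 5.37% of all genes. MRPS34 stood at 40.7 TPM (27 reads) in the knockdown, against 147 TPM (55 reads) in the scramble and 215 TPM in the other scramble, with a relative change of -1.52. MRPL47 stood at 7.24 TPM (6 reads) in the knockdown, against 42.8 TPM (20 reads) and 46.2 TPM, with a relative change of -2.10. MRPL23 (1.90) and MRPL54 (1.36) went the other way on 4 and 5 scramble reads, and against the other scramble they stood at 0.07 and -0.27. Of the list, 8 members were lower and 1 was higher by size against both scrambles, where 2.18% and 2.33% of all genes were. Nuclear-encoded oxidative phosphorylation genes had a median of -0.22 over 76 members, with 55 below, none higher and 4 lower by size. NDUFB2, of complex I, stood at 8.89 TPM (24 reads) in the knockdown, against 24.98 TPM (38 reads) and 27.7 TPM, with a relative change of -1.09. ATP5PB, of the ATP synthase stalk, had the same relative change of -1.09, NDUFB5 was at -1.77 on 4 and 16 reads and ATP5PF was at 0.99.

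Replication-dependent histones had a median of -0.49 over 46 members, with 43 below the all-gene median, none higher and 3 lower by size. H3C12 stood at 171 TPM (89 reads) in the knockdown, against 456 TPM (134 reads) in the scramble and 1055 TPM in the other scramble, with a relative change of -1.10. H3C7 (-1.28) and H2BC10 (-1.15) were the other members lower by size, and H4C9 was at -0.94. Histone genes are near-identical copies, so the counts of single members are uncertain, while the list sum was 9453 TPM in the knockdown, against 16046 TPM in the scramble and 34322 TPM in the other scramble. The knockdown was lowest and the scrambles again lay far apart. Against the other scramble the median was -1.24, and 42 of the 46 members were below the median in both comparisons, against 33.3% of all genes.

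Cytosolic ribosomal protein mRNAs also lay low, with few large single changes. The 50 large-subunit genes had a median of -0.26 with 41 below the all-gene median and none past the size rule, and RPL36AL (-0.93), RPLP2 (-0.57), RPL6 (-0.56) and RPL30 (-0.54) were the lowest with enough reads. The 32 small-subunit genes had a median of -0.18 with 26 below, among them RPS12 (-0.60), RPS2 (-0.57) and RPS27A (-0.48), and 1 was higher by size. Many of these genes have processed pseudogene copies, to which the authors' counting could have assigned some reads. Against the other scramble the medians were -0.65 and -0.61.

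Cell cycle lists lay slightly below the median. G2/M genes had a median of -0.23 over 48 members, with 2 higher and 4 lower by size, against 6.2% and 5.37% of all genes. FOXM1, the transcription factor of the mitotic programme, stood at 13.7 TPM (41 reads) in the knockdown, against 50.5 TPM (85 reads) in the scramble and 101 TPM in the other scramble, with a relative change of -1.498. CDC25C was at -1.11, DLGAP5 at 1.04 and CDCA8 at 1.07, the last with -1.03 against the other scramble. DNA replication and G1/S genes had a median of -0.21 over 44 members (-0.63 against the other scramble), with none higher and 1 lower by size, and CCNE1 (-0.99), CHAF1B (-0.99), ATAD2 (0.96) and ORC1 (0.90) were the largest with enough reads. p53 targets had a median of 0.05 over 29 members, with GADD45A (1.34) and EDA2R (1.11) higher and BTG2 (-1.57) lower. Tubulin isotypes had a median of -0.11 over 13 members (-0.93 against the other scramble), and TUBA4A stood at 16.5 TPM in the knockdown, against 45.1 and 131 TPM in the scrambles, with a relative change of -1.09. On few reads, TUBD1 (-1.67, 3 and 10 reads) was also lower and TUBB4A (1.61, 16 and 3 reads) higher by size. They stood at -1.71 and 1.60 against the other scramble. TUBA1C (-0.51), TUBA1B (-0.41) and TUBA1A (0.24) share much of their sequence and are uncertain one by one.

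Genes of the secretory pathway and of stress responses had list medians between -0.21 and 0.25 against the scramble, some of them farther from 0 against the other scramble. Endoplasmic reticulum chaperones and unfolded protein response genes had a median of 0.25 over 23 members, with 18 above the all-gene median, and a median of 0.96 against the other scramble with 21 of 22 above. SEC61A1, the channel of the translocon, stood at 197 TPM (555 reads) in the knockdown, against 137 TPM (217 reads) and 141 TPM in the scrambles, with a relative change of 0.83, while SEC61B was higher (1.13) and CRELD2 lower (-1.04) by size and MANF stood at -0.88. Integrated stress response and one-carbon genes had a median of -0.15 over 28 members, and of -0.48 against the other scramble. PSAT1, of serine synthesis, stood at 58.2 TPM (78 reads) in the knockdown, against 179 TPM (135 reads) and 255 TPM, with a relative change of -1.29. PYCR1, of proline synthesis, stood at 22.3 TPM (39 reads) in the knockdown, against 63.8 TPM (63 reads) and 119 TPM, with a relative change of -1.17. PSAT1 and PYCR1 were lowest in the knockdown among the 3 libraries, and DDIT4 (0.88) and SLC7A1 (0.72) were on the other side of the median.

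NRF2 targets had a median of 0.19 over 32 members, with OSGIN1 (1.38) higher by size, ABCC3 at 0.92, PGD at 0.65 and TRIM16 at -0.62. Heat shock proteins and the chaperonin had a median of -0.21 over 24 members, with none past the size rule and HSPA1A (0.72), HSPA1B (-0.48), CCT3 (-0.44) and DNAJB4 (-0.40) the largest. Glycolysis and hypoxia genes had a median of -0.07 over 23 members, with the vasodilator peptide ADM (1.07) higher by size, and PFKL at 0.79, PGK1 at -0.55 and ALDOA at -0.52. Lysosome and autophagy genes had a median of 0.12 over 48 members (0.66 against the other scramble), with ATP6V1B2 (-1.69), ATG3 (-1.29) and ATG12 (-1.02) lower by size and NAGLU at 0.94.

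Lists of the translation and RNA machinery had medians between -0.16 and 0.07 against the scramble and between -0.42 and 0.04 against the other scramble. The 12 measured members of the eIF4E2 complex and its partners had a median of -0.08, with TNRC6B (1.03) higher by size, EIF4EBP2 at -0.80 and ZNF598 at 0.75. EIF4E2 itself stood at 9.55 TPM (38 reads) in the knockdown, against 8.47 TPM (19 reads) in the scramble and 21.4 TPM in the other scramble, with relative changes of 0.46 and -0.50. The 12 eIF3 subunits had a median of -0.16 with none past the size rule, and EIF3J (-0.77) and EIF3D (-0.72) were lowest. Other translation factors had a median of -0.05 over 30 members, and EIF2B4 (-1.79) and EIF2B1 (-1.19), subunits of the exchange factor of eIF2, were lower by size. Aminoacyl-tRNA synthetases had a median of -0.14 over 34 members, with the mitochondrial enzymes NARS2 (-1.82) and HARS2 (-1.38) lower.

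Ribosome biogenesis factors had a median of -0.06 over 60 members, with RRP9 (1.04) higher and UTP3 (-1.73) and BMS1 (-1.69) lower. Spliceosome proteins and SR factors had a median of 0.01 over 56 members, with PRPF3 (1.51), SNRPD3 (1.42), SRRM1 (1.10) and SNRPA1 (1.02) higher and none lower. Against the other scramble PRPF3 and SRRM1 stood at 1.18 and 1.16, but SNRPD3 (22 and 5 reads) at 0.20 and SNRPA1 (16 and 5 reads) at -0.29. mRNA decay factors had a median of -0.01 over 47 members, with 4 higher, among them EDC3 (1.76) and EXOSC8 (1.502), and 5 lower, among them SMG9 (-1.34) and SMG8 (-1.21). Proteasome subunits had a median of -0.15 over 41 members, with PSMA6 (1.03) higher and PSMC1 (-1.49) lower. The 230 measured ZNF-named zinc finger genes had a median of 0.07, with 23 higher and 10 lower by size, including ZNF628 (1.74), ZNF768 (1.67), ZNF385A (1.51) and ZNF428 (-1.68). For all lists of this paragraph the shares over all genes were 6.2% higher and 5.37% lower.

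**Figure D3:**
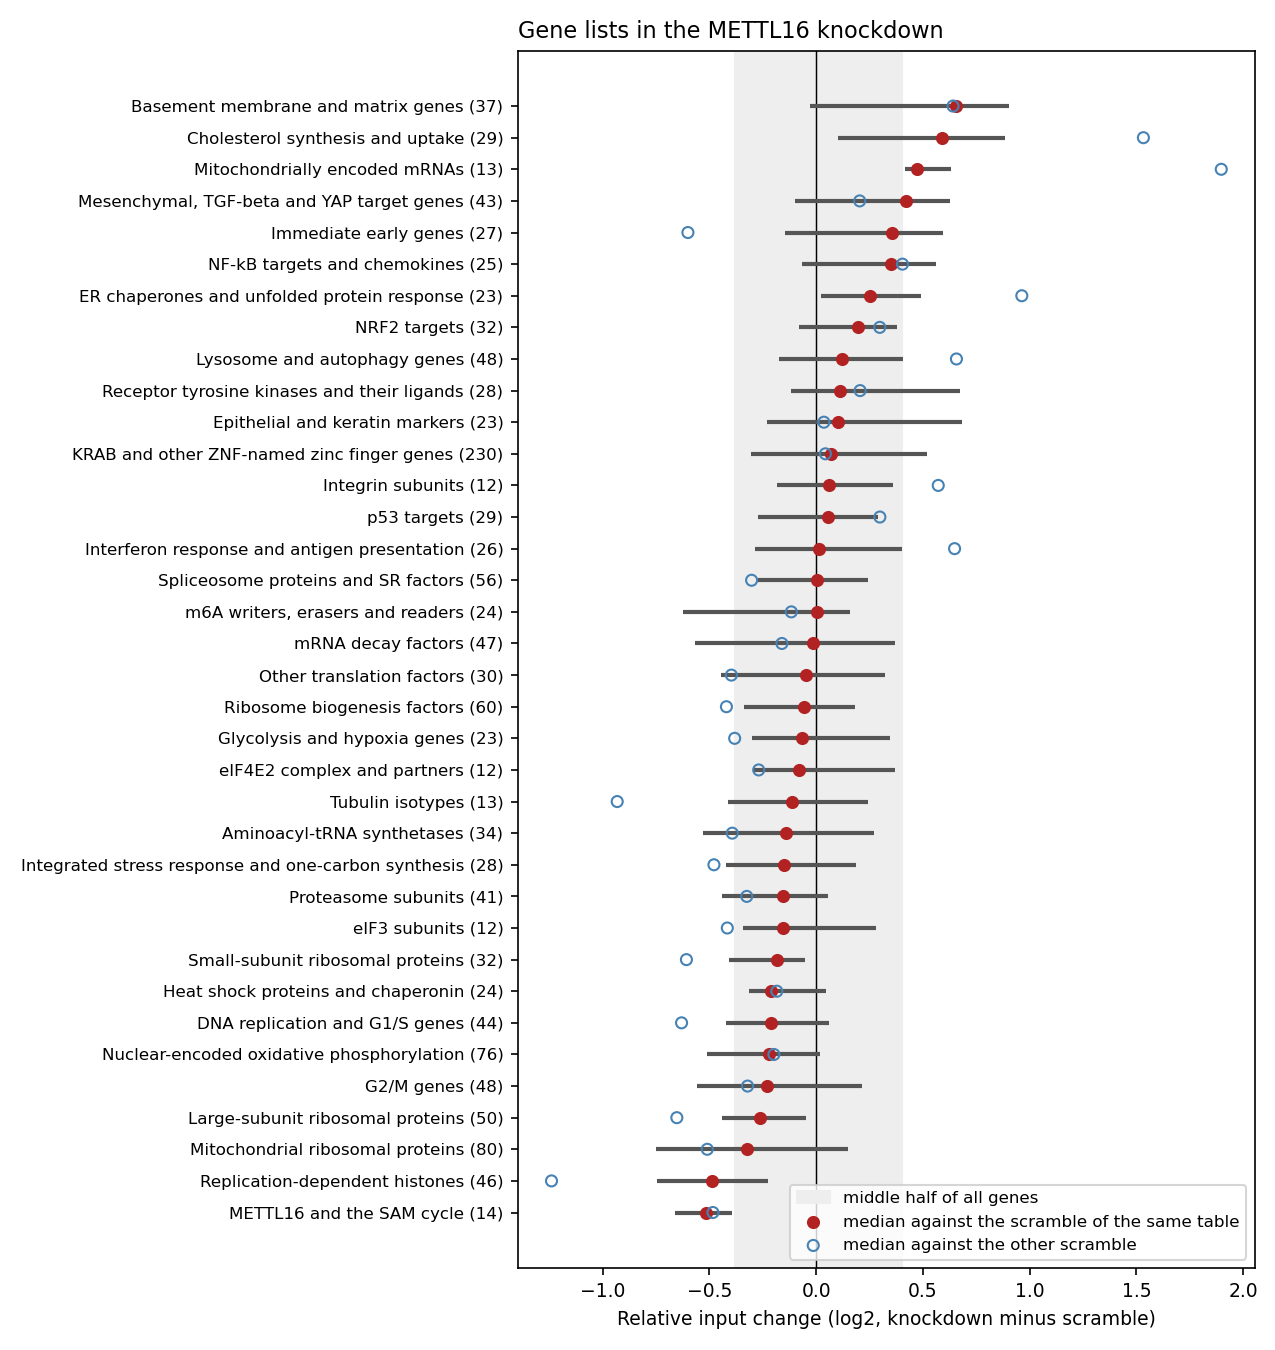
Median relative input change (log2) of each gene list, with the number of measured members in brackets and a bar for its middle 50%, against the scramble of the same table (red), beside the median against the other scramble (open blue). Grey shading is the middle 50% of all genes, from -0.38 to 0.40, and the matrix (0.65), sterol (0.59), histone (-0.49) and SAM cycle (-0.51) lists are among those with medians outside it.

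Footprints of the same 2 samples were made as separate libraries and give a readout that the size rule did not use. Footprint TPM was lower in the knockdown by more than input was, with an all-gene median of -0.95, and relative footprint changes have that median removed. By size, 720 genes (7.42%) were higher and 407 (4.19%) lower in footprints. Of the 602 genes higher by size in input, 415 (68.9%) lay above the footprint median, and of the 521 lower genes 304 (58.3%) lay below it, against 50% of all genes. A gene without footprint reads on either side has a relative footprint change of 0.95, through the pseudocount. Among genes with 100 input reads or more the counts were 59 of 76 and 42 of 46. The base of 50% does not hold for these, since their footprint medians in 5 bins of gene length lay between -0.29 and -0.06. Across the 2441 genes of that depth the input and footprint changes had Pearson's r of 0.45 and Spearman's rho of 0.39, and across all 9706 genes 0.21 and 0.20. These are descriptions over genes of 2 samples, and genes are not independent replicates.

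The leading genes differed in how far footprints followed. CDH1 had relative changes of 1.81 in input and 1.83 in footprints and TM4SF4 of 3.01 and 1.64. VIM had relative changes of -1.89 in input and -2.83 in footprints, SSR2 of -2.20 and -2.55, and CDCP1 of -2.53 and -1.58. These 5 genes thus had the same direction in both readouts. CADM4 was higher in input (2.89) and had a footprint change of -1.04, on 28 and 2 input reads. ARPC1A was lower in input (-1.81) and had a footprint change of 1.41, on 8 and 22 input reads.

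**Figure D4:**
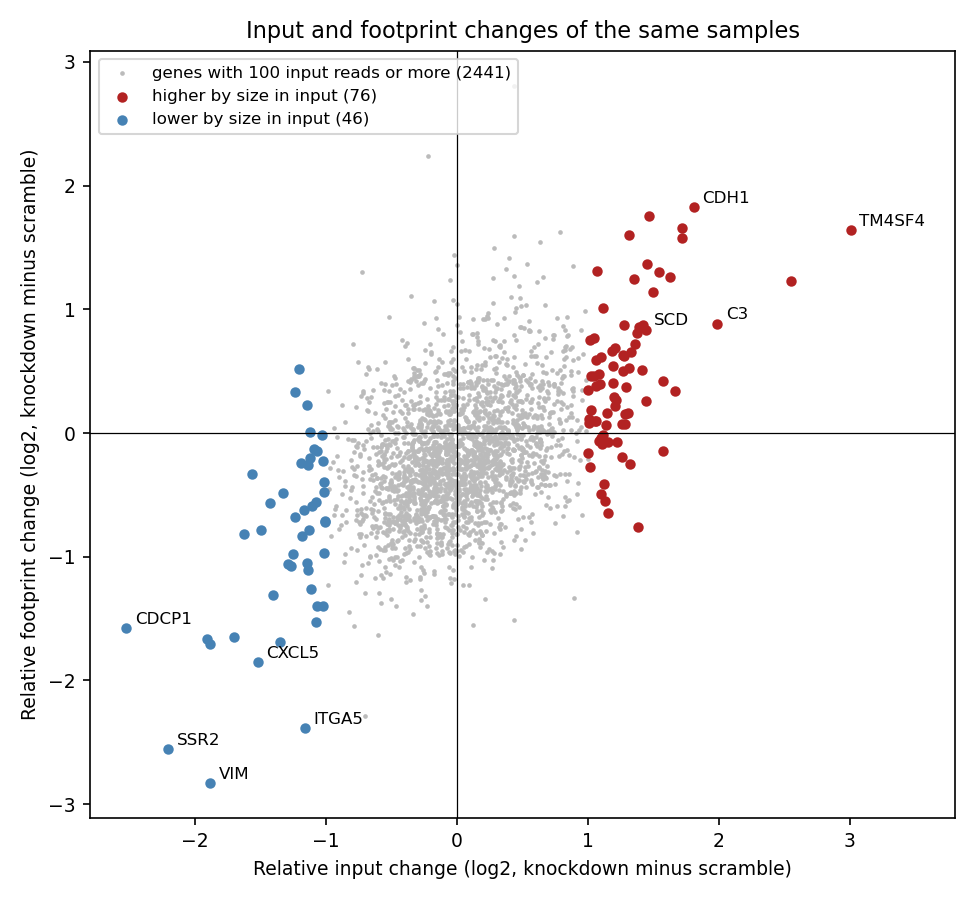
Relative footprint change against relative input change (both log2, knockdown minus scramble) of the 2441 genes with 100 input reads or more, with the 76 genes higher by size in input in red and the 46 lower in blue. Of the red points 59 lie above the footprint median of all 9706 genes, and of the blue points 42 lie below it.

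The clones made with a guide against METTL16 gave a second depletion with a control of its own. By size, 581 genes (6.69%) were higher and 330 (3.8%) lower in clone 1, and 527 (6.09%) were higher and 403 (4.66%) lower in clone 2. Across genes the hairpin change had r of -0.01 with clone 1 (8690 genes) and -0.03 with clone 2 (8657 genes), and rho of 0.02 and -0.02. Of the genes higher by size in the knockdown, 474 were measured in both clones and 155 of them (32.7%) lay above the all-gene median in both, against 37.6% of all 8551 genes. Of the lower genes, 475 were measured and 175 (36.8%) lay below it in both, against 37.6% of all genes. The clones differ from the hairpin cells in the tool, in cloning and in their control, and these cannot be told apart. That control is labelled as untreated while the study's design text names an sgNS group, and the sources used here do not settle which it was.

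Some leading genes had the same direction in both clones. C3 had relative changes of 1.27 and 0.78 in the clones, IGFBP7 of 1.84 and 1.17, and RIOX1 of -1.23 and -1.65. TM4SF4 had changes of -1.39 and -0.97, opposite to the knockdown. VIM (0.35 and 0.21), SSR2 (0.23 and 0.06) and F2RL1 (0.72 and 0.90) were also on the other side of the median in the clones.

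Gene length moved with the input change. In 5 equal bins of gene length, with medians of 2182, 3740, 5292, 7231 and 11160 nt, the median relative change was -0.15, -0.05, 0.03, 0.04 and 0.11. With 100 reads or more the outer bins were at -0.15 and 0.10. Across genes r with log2 length was 0.12 and rho 0.14. The lists differ in length: the median gene length was 519 nt for the histones, 3372.5 nt for large-subunit and 2855.5 nt for small-subunit ribosomal proteins, 5684 nt for the sterol genes and 7285 nt for the matrix genes. The part of length in the list medians was not tested. By promoter GC content, known for 7960 genes (82.0%), the 5 bins lay between -0.03 and 0.03. Chromosome medians lay between -0.09 and 0.05, so no chromosome stood apart.

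**Figure D5:**
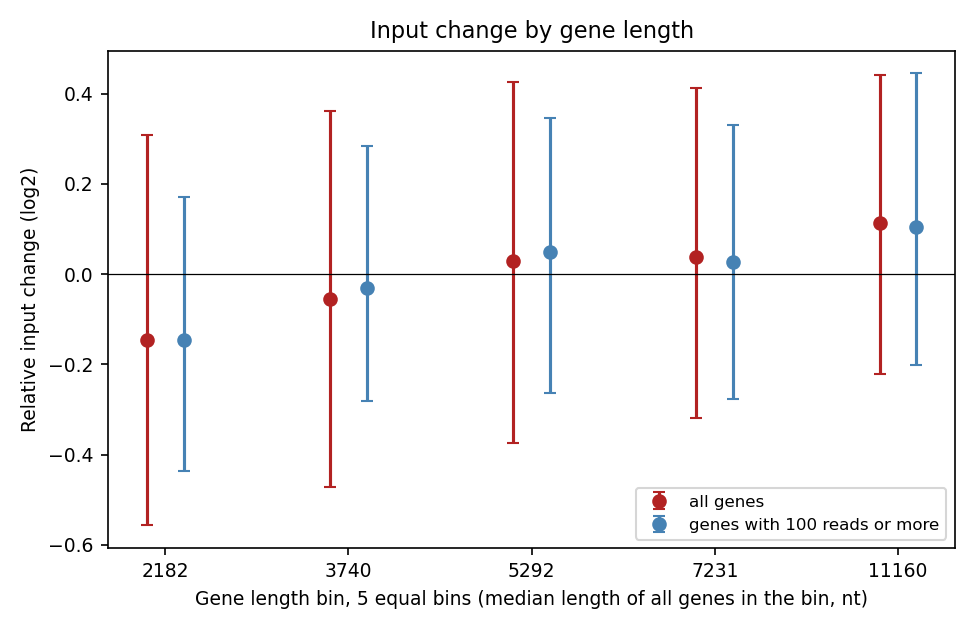
Median relative input change (log2) in 5 equal bins of gene length, with bars for the middle 50% of genes, for all 9706 genes (red) and for the 2441 with 100 reads or more (blue). The medians run between -0.15 in the shortest and 0.11 in the longest bin, well inside the spread of genes within a bin.

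Genes listed on 1 side only are not among the 9706. The knockdown input listed 757 genes that the scramble did not, with a median of 1.80 TPM and a highest value of 14.5 TPM, and the scramble listed 793 that the knockdown did not, with a median of 1.93 TPM and a highest value of 15.1 TPM. Most lay near the lowest listed value of 1.00 TPM, and 40 and 65 of them stood at 5 TPM or more. RASA1, a GTPase-activating protein of Ras, was listed at 10.1 TPM (32 reads) in the knockdown only, and COMMD1, a copper homeostasis protein, at 13.4 TPM (11 reads) in the scramble only. Both were picked after their values were seen, and no fold is given since an unlisted value is not known to be 0.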

How the data were processed

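Values are TPM, which the authors deposited in 3 tables of genes. Per the submitters' processing notes, the build was GRCh38 and the tools were featureCounts 2.0.1, STAR 2.7.5c, cutadapt 2.8, Bowtie2 2.2.5 and Bowtie 1.3.0, with roles and strand setting not given in the sources used here. Each table lists genes from 1.00 TPM of input upward, holding 44.6% (knockdown) and 49.8% (scramble) of the TPM total.

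TPM values of 1 gene are whole multiples of the worth of 1 read, so read counts were recovered from the deposited TPM for all 11892 genes with 2 or more values (relative tolerance 1e-10). Gene lengths implied by TPM came out whole within 0.0001 nt and equalled RefSeq for 13 of 13 mitochondrial mRNAs. They replaced the planned coding length, which no table gave. The recovery was tested on simulated data.

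Changes are log2(TPM + 1), knockdown minus scramble, less the all-gene median. Ratio intervals are exact Clopper-Pearson at 95% and cover counting error only, since they are built from the read counts of 1 library a side. Reads carried no molecular identifiers, so copies of the same molecule were not told apart and the intervals do not allow for them. No replicate exists on either side, so no p-value was computed. Named genes are METTL16 and the SAM list, the 15 highest and 15 lowest of 1300 eligible genes, and up to 4 members of each of 37 lists with 20 reads or more. The genes, lists and rules were chosen with earlier results of these data known. The read strata and the comparison with both scrambles were added after seeing the values. Some genes of these lists enter the counts and medians but are not reported here. Coordinates were found for 98.5% of the symbols. Python 3.11.15, NumPy 2.4.6, pandas 2.3.3, SciPy 1.17.1 and matplotlib 3.10.9 were used.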

Additional observations from a re-analysis of the deposited data

Results flagged for a closer look

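Among the named genes, those with a relative change of at least 1 log2 unit in the hairpin knockdown and of at least 1 unit the other way in both METTL16 guide clones were set apart. The difference between hairpin and clones was not tested, with 1 library per sample. Among the 15 highest and 15 lowest genes none met this, and the search was then widened to all 175 named genes, where 7 did. Over all genes, of 474 genes higher by size and measured in both clones, 16 were lower by size in both clones and 10 higher, and of 475 lower genes 21 were higher by size in both and 5 lower. MRPL47, of the mitochondrial ribosome, had -2.10 in the knockdown and 1.32 and 1.28 in the clones. BMS1, of ribosome biogenesis, had -1.69, against 1.51 and 1.17. IL6 had -1.62, against 3.14 and 1.27. LTBP1 had -1.47, against 1.89 and 1.77. ATG12 had -1.02, against 1.77 and 1.62. ITGB4 had 1.29, against -1.30 and -1.82. KRT80 had 1.13, against -1.44 and -1.68. Of these, KRT80 turned to -1.42 and LTBP1 to 0.0076 when the knockdown was set against the other scramble. IL6 (-0.45) and ITGB4 (0.45) kept their direction there but fell short of 1 log2 unit.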

How the results depend on the processing

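No paired analysis was possible because each side has 1 library. METTL16 stayed below the all-gene median in each of the 8 alternatives that kept it, at -0.71 to -1.54, and 2 minimums (10 TPM and 100 reads) removed it. The counts of genes higher and lower by size were 143 and 165 with a pseudocount of 5, 188 and 198 at 10 TPM or more, 77 and 46 at 100 reads or more, with the median taken over those genes (an alternative added after seeing the data), 255 and 1162 with no median removed, 171 and 1562 scaled to mitochondrially encoded mRNAs, 1242 and 947 with the other scramble as control, 1949 and 1849 at 0.5 log2 units and 38 and 20 at 2. The all-gene median was -0.43 scaled to mitochondrially encoded mRNAs, 0.00 after quantile normalization, -0.59 with the other scramble and -0.45 with the mean of both.

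With the other scramble as control, 15 of the genes named by rule and past 1 log2 unit changed direction (as did CXCL2 at 0.35, CXCL3 at 0.82 and DKK1 at 0.55): HTRA1 -0.080, ZC3H12A -0.084, SLC16A6 1.60, MRPL54 -0.27, CDCA8 -1.03, GADD45A -0.12, FOSL2 -0.017, CXCL5 0.78, KRT80 -1.42 (-0.14 with the mean of both), LTBP1 0.0076, HSPG2 -0.056, AREG 0.31, SNRPA1 -0.29, RRP9 -0.57 and ZNF768 -0.34. So did the immediate early genes (-0.60, and -0.17 with the mean of both). Beside the 15 reversed genes, 64 named genes were graded as moved and 92 as the same with the other scramble. Of the list medians 27 were graded as moved, 1 as reversed and only 9 as the same, with a tolerance of 0.1. With no median removed, and scaled to mitochondrial mRNAs, list medians that were above 0.1 turned to below -0.1 for NRF2 targets (-0.11 and -0.26), epithelial markers (-0.20 and -0.35), receptor tyrosine kinases (-0.20 and -0.32) and lysosome genes (-0.19 and -0.31), and only in the mitochondrial scaling for endoplasmic reticulum chaperones (-0.19, and -0.058 with no median removed) and NF-kB targets (-0.10, and 0.042). Lists with medians between 0 and 0.1 also turned in both. The cause was not tested, except that both scalings move all genes the same way. Reads per gene limit most single values: the median gene had 25 reads in the knockdown and 18 in the scramble.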
